A study of Homo sapiens with 27 samples.

Results

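The YTH domain reader genes YTHDF1, YTHDF2, YTHDF3, YTHDC1 and YTHDC2 were examined for peaks of 5 RNA modifications in HepAD38 cells. Their peaks were all those that the authors' lists assigned to 1 of these 5 genes alone and, for pseudouridine (Psi), all those whose summit lay inside the gene's span. This gave 35 of 76940 antibody peaks and 18 of 16672 Psi peaks. HepAD38 cells, from a human liver carcinoma, hold an integrated hepatitis B virus genome, and all 27 libraries were labelled wild type, with no second genotype or line. Antibodies to m1A (N1-methyladenosine), to m5C (5-methylcytidine), to m7G (7-methylguanosine) and to ac4C (N4-acetylcytidine) each had 3 immunoprecipitated (IP) libraries of total RNA and 3 of input. Psi had 3 libraries and no control. The study asked, per its design text, whether such marks take part in evolution.

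The YTH domain is a pocket that holds N6-methyladenosine (m6A) in RNA. YTHDF1, YTHDF2 and YTHDF3 are cytoplasmic paralogs, of which YTHDF2 is best known for recruiting a deadenylase complex to m6A-bearing mRNA and YTHDF1 and YTHDF3 for roles in translation and decay. YTHDC1 is the nuclear reader, with roles in splicing and export, and YTHDC2 is an RNA helicase known from meiosis. m6A itself was not profiled here. The peaks lie on the transcripts of the reader genes, so they describe marks on these mRNAs and not what the proteins bind.

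Each antibody list gives 1 pooled IP and 1 pooled input value per peak, in RPM (reads scaled to the size of the library), so no value below has a replicate error. The steps of the RPM values placed the pooled depth between 17135274 (ac4C) and 280714967 (m1A) reads for the IP and between 241116539 (m5C) and 364905847 (m1A) reads for the input. For Psi, 2218798 of 10921552 tags passed the duplicate filter. An RPM ratio below is IP over input, with a 95% exact (Clopper-Pearson) interval in parentheses that covers counting error only. A peak was called higher or lower in the IP at a ratio of at least 2 or at most 0.5 with its interval wholly past 1. Hepatocyte markers were present as the label implies: 7 of 8, all but SERPINA1, had peaks in the m1A, m5C and m7G lists. The ac4C list stood apart, with only HNF4A of these 8, no ALB, APOA1 or TF, and 7 of 8 mesenchymal markers that no other list held. Those 7 summed to 893 RPM in the ac4C IP against 3.21 RPM in its input.

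YTHDF2 and YTHDF3 had peaks in all 5 lists, as did 14.8% of the 11735 protein-coding genes with any peak. YTHDF1 lacked ac4C, and YTHDC2 lacked m7G and ac4C. YTHDC1 had no antibody peak and 3 Psi peaks. No antibody peak of another gene fell within the span of any of the 5 genes. Psi without an antibody peak assigned to that gene alone was found for 1269 of the 6483 protein-coding genes that held a Psi summit (19.6%). Both this share and the 14.8% above leave out antibody peaks assigned to several genes.

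**Figure D1:**
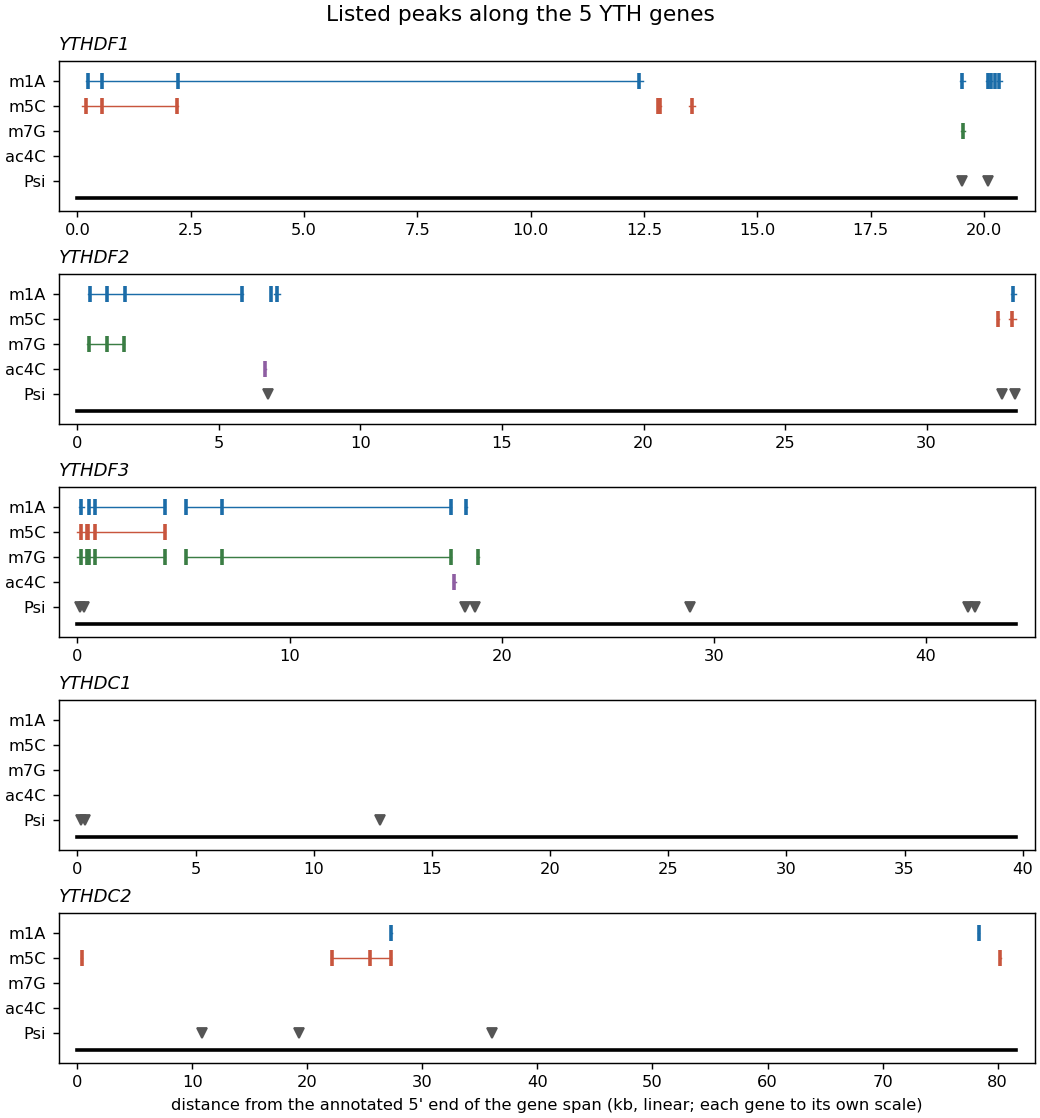
Positions of all listed peaks along each gene. The x axis is the distance from the annotated 5' end in kb, ticks are the blocks of a peak, thin lines join the blocks of 1 peak, triangles are Psi summits and the black bar is the gene span. The 3 YTHDF genes carry multi-block peaks at their 5' ends, and YTHDC1 has only its 3 Psi summits.

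The 5' peaks of the YTHDF paralogs shared a layout of short blocks. The first m1A peak of YTHDF1 on chromosome 20 (63203657 to 63215934, hg38, minus strand) came in 4 blocks of 69, 25, 80 and 151 bases, 5' to 3'. The first m1A peak of YTHDF2 on chromosome 1 (28737001 to 28742475) came in 4 blocks of 147, 25, 80 and 73 bases. In YTHDF3 on chromosome 8 the second m1A peak (63169104 to 63172669) had blocks of 8, 25 and 17 bases and the third (63173672 to 63186175) had blocks of 10, 86 and 29 bases. An inner block of 25 bases with a gap on either side was therefore listed in all 3 paralogs. It stood at 530 bases from the 5' end of the span in YTHDF1, 1034 in YTHDF2 and 834 in YTHDF3. The same 25 bases were listed for m5C in YTHDF1 and YTHDF3 and for m7G in YTHDF2 and YTHDF3. In each gene the gaps on both sides of this block had the same edges in every list that held it. Exon annotation was not used here, so whether the gaps are introns was not tested, and the layout need not come from the signal.

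The m1A list held 16 peaks of these genes, and in each of the 4 genes listed there the peak nearest the 5' end had a higher IP over input ratio than the peak nearest the 3' end. YTHDF1 had 29.3 RPM in the IP and 6.42 in the input at its 5'-most peak, a ratio of 4.57 (4.36 to 4.78). At its 3'-most peak (63195730 to 63195854) YTHDF1 had 1.86 RPM in the IP and 3.78 in the input, a ratio of 0.491 (0.443 to 0.544). The IP thus stood above the input at the start of YTHDF1 and below it at the end. The quotient of both ratios was 9.30 (8.31 to 10.4). YTHDF2 had 16.4 against 3.46 RPM at its 5'-most peak, a ratio of 4.72 (4.43 to 5.03). At its 3'-most peak (28769593 to 28769767), 95 bases from the end of the gene, it had 1.67 against 2.96 RPM, a ratio of 0.563 (0.504 to 0.628). YTHDF2 therefore ran the same way as YTHDF1, with a quotient of 8.39 (7.39 to 9.53).

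YTHDF3 had the highest m1A ratio of the 16 peaks. Its 5'-most peak (63168603 to 63168852) had 22.9 RPM in the IP and 1.93 in the input, a ratio of 11.9 (11.0 to 12.9), above 90.6% of m1A peaks. Along YTHDF3 the next 3 peaks had ratios of 3.14 (2.73 to 3.62), 2.11 (1.90 to 2.34) and 1.01 (0.803 to 1.27), 5' to 3'. Each lay below the one before it, with no overlap of the counting intervals. The quotient of the first over the last was 11.8 (9.26 to 15.0). YTHDC2, the helicase gene, had only 2 m1A peaks of 25 bases, both with low signal. The first, on chromosome 5 (113540981 to 113541005), had 0.107 against 0.112 RPM with 30 IP reads and 41 input reads, which is a ratio of 0.951 (0.573 to 1.56). The second had 0.438 against 1.06 RPM, a ratio of 0.414 (0.335 to 0.509). The 5' peak of YTHDC2 was not above its input, and its quotient over the 3' peak was 2.30 (1.32 to 3.94).

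All 4 m1A differences between the 5'-most and the 3'-most listed peak of a gene were 2-fold or more. All passed Fisher's exact test on the recovered reads, with Benjamini-Hochberg adjustment over 6105 genes and a largest adjusted p of 0.00308. Over all these genes 49.5% passed in this direction and 10.2% in the other, with a median quotient of 1.98. This contrast was chosen after the values had been seen, and it compares pooled libraries. The quotients of all 4 genes lay above that median, but the interval of YTHDC2 spans it. With at least 50 input reads asked for at both peaks, 3 genes were left, without YTHDC2, whose first m1A peak has 41 and lies 27299 bases into the gene. The last m1A peak of YTHDF3 lies 25925 bases before the 3' end of its 44236-base span, so its quotient does not reach that end.

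Of the 16 m1A peaks, 5 were called higher in the IP, against 44.7% of all 29708 m1A peaks, and 3 were called lower, against 10.8%. The 5 higher peaks were the 5'-most of YTHDF1 and YTHDF2 and the first 3 of YTHDF3. The 3 lower ones were the last 2 of YTHDF1 and the last of YTHDC2. By the exact binomial test of the recovered reads, two-sided, with Benjamini-Hochberg adjustment over the list and no fold, 6 were higher, against 60.8% of all m1A peaks, and 6 lower, against 28.3%. The median ratio over the 16 was 0.980, beside 1.67 over the list. The authors' deposited table gives every one of them a log2 enrichment above 0, from 1.14 to 3.39, so its scale is not that of the RPM ratio.

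m5C divided the genes, with the IP above the input in YTHDF2 and YTHDC2 and below it in YTHDF1 and YTHDF3. By the same rule over summed peaks, 32.9% of all 7881 protein-coding genes of the list were called higher and 24.2% lower. Of all m5C peaks 49.7% had a ratio below 1, so a division of this kind is near the list's own balance. Summed over listed peaks, YTHDF2 had 20.3 RPM in the IP and 3.85 in the input, a ratio of 5.28 (4.89 to 5.70). YTHDC2 had 33.4 against 3.15 RPM, a ratio of 10.6 (9.82 to 11.5), of which 1 of its 3 peaks held 31.4 RPM in the IP; the median of its 3 peak ratios was 3.12. YTHDF1 had 14.8 against 33.1 RPM, a ratio of 0.448 (0.425 to 0.472). YTHDF3 had 7.23 against 16.8 RPM, a ratio of 0.430 (0.399 to 0.463). The median of the peak ratios was 0.649 for YTHDF3. The authors' deposited table gives all 11 m5C peaks of these genes a log2 enrichment above 0, from 1.59 to 6.03. That holds for the 7 with an RPM ratio below 1 too, so its scale is not that of the RPM ratio. The sums of YTHDF1 and YTHDF3 did not differ from each other beyond counting error, with a quotient of 1.04 (0.951 to 1.14), though they cover different stretches. The m5C sums of YTHDF2 and YTHDF3 come from opposite ends of their genes, 3' in YTHDF2 and 5' in YTHDF3, so their ratios are set side by side and not divided.

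The place of the m5C peaks differed as well. Both YTHDF2 peaks lay near the 3' end of the gene. The peak at 28769118 to 28769167, 633 bases from the end, had 198 reads in the IP and 43 in the input, and its ratio was 9.38 (6.72 to 13.4). The peak at 28769543 to 28769767, 120 bases from the end, had one of 5.08 (4.70 to 5.50). The second covers the 3'-most m1A peak of the same gene, all 175 bases of it, where the m1A ratio was 0.563. In YTHDC2 the highest m5C peak (113535770 to 113540980) came in 3 blocks of 29, 108 and 13 bases and had 31.4 RPM in the IP against 2.06 in the input, a ratio of 15.2 (13.9 to 16.8), above 96.1% of m5C peaks. It ended where the first m1A peak of YTHDC2 began. The last m5C peak of YTHDC2 had a ratio of 3.12 (2.50 to 3.89) and the first, 362 bases from the 5' end, one of 0.394 (0.244 to 0.614), resting on 24 reads in the IP and 124 in the input.

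In YTHDF1 the m5C peak at the 5' end (63213913 to 63216034) had 11.8 RPM in the IP and 24.3 in the input, a ratio of 0.487 (0.459 to 0.516). It shared 125 bases with the 5' m1A peak, whose ratio was 4.57. In YTHDF3 the first m5C peak (63168553 to 63169003) had a ratio of 0.395 (0.365 to 0.428). The second (63169029 to 63172669) had one of 0.902 (0.724 to 1.12), although the authors' deposited table gives it the highest log2 enrichment among these genes, 6.03. Of the 11 m5C peaks 4 were called higher, against 31.6% of all m5C peaks, and 5 lower, against 28.0%. The exact binomial test made 4 higher, against 42.7%, and 6 lower, against 42.6%.

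The m5C peaks of YTHDF3 both lie near its 5' end, with midpoints 174 and 538 bases in. YTHDF3 (quotient 0.438, 0.348 to 0.554) and YTHDC2 (0.127, 0.0745 to 0.210) had a higher ratio at the 3'-most m5C peak than at the 5'-most. This direction passed in 45.0% of 4915 genes by Fisher's exact test with Benjamini-Hochberg adjustment and a 2-fold difference, and the reverse in 13.7%. YTHDF1 (1.47, 1.29 to 1.69) and YTHDF2 (1.85, 1.31 to 2.66) leaned the other way with less than 2-fold, so neither was called.

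**Figure D2:**
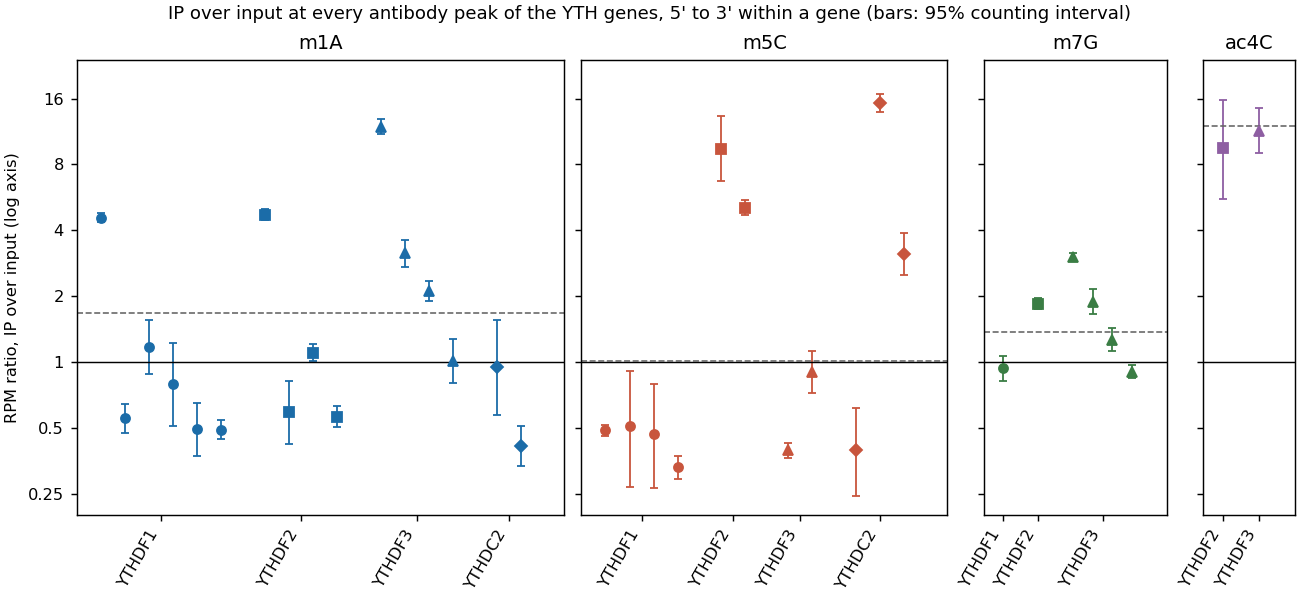
RPM ratio of IP over input at each of the 35 antibody peaks (log axis), grouped by gene and ordered 5' to 3' within a gene. Bars are 95% counting intervals, the solid line is a ratio of 1 and the dashed line is the median of the whole list. In m1A the first peak of each YTHDF gene is its highest; in m5C only YTHDF2 and YTHDC2 peaks lie above 1.

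m7G signal was highest in YTHDF3 and absent from the list for YTHDC1 and YTHDC2. The 5' peak of YTHDF3 (63168553 to 63169003) had 31.7 RPM in the IP and 10.5 in the input, a ratio of 3.03 (2.90 to 3.17). It has the same coordinates as its first m5C peak, where the ratio was 0.395. Of the 6 m7G peaks this was the only one called higher, against 37.6% of all m7G peaks, and 0 were called lower, against 0.0472%. By the exact binomial test 4 were higher, against 66.2%, and 1 was lower, against 21.5%. The 3'-most m7G peak of YTHDF3, still 25338 bases from the 3' end of the gene, had a ratio of 0.904 (0.843 to 0.969). The quotient of its first over its last m7G peak was 3.35 (3.09 to 3.64), a direction that 60.9% of 4123 genes passed by the same Fisher's exact test and fold, against 0.364% for the other direction.

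YTHDF2 had 1 m7G peak (28736951 to 28738261), near the 5' end, with 13.3 against 7.18 RPM, a ratio of 1.85 (1.74 to 1.95). The start of this peak is the only stretch of an antibody peak of these genes that the RefSeq promoter windows hold. It is shown because m7G, and no other antibody list, has a peak there. Of its 30 bases 13 are G and 10 are C, and no background share was taken. It reads as follows at chr1:28736951-28736980 (GRCh38.p14, plus strand).
YTHDF2 m7G peak start: gagtcggagccggagcctgagccgcgcgct
YTHDF1 had 1 m7G peak, near the 3' end (63196555 to 63196629), with 1.69 against 1.80 RPM, a ratio of 0.937 (0.821 to 1.07). All of its 75 bases were also listed for m1A, with a ratio of 0.553 (0.474 to 0.643).

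ac4C had 1 short peak each in YTHDF2 and YTHDF3. In YTHDF2 (28743251 to 28743275) 24 IP and 49 input reads gave 1.40 against 0.147 RPM, a ratio of 9.52 (5.59 to 15.8). In YTHDF3 (63186251 to 63186400) 114 IP and 194 input reads gave 6.65 against 0.582 RPM, a ratio of 11.4 (8.99 to 14.5). Both were called higher, as were 99.6% of all ac4C peaks and 100% by the exact binomial test. Relative to that list's median ratio of 11.9 they stood at 0.798 and 0.957 times the median. Both counting intervals span 11.9, so neither differed from the median beyond counting error. The 2 genes did not differ beyond counting error (quotient 0.834, 0.463 to 1.47). Neither ac4C peak shared a base with a peak of another antibody list, beside 43.1% of all ac4C peaks of 1 gene that did. The mesenchymal markers that only this list holds stand beside these values. Whether the ac4C IP and its input hold RNA of the same cells was not tested, so both ratios may compare unlike RNA.

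**Figure D3:**
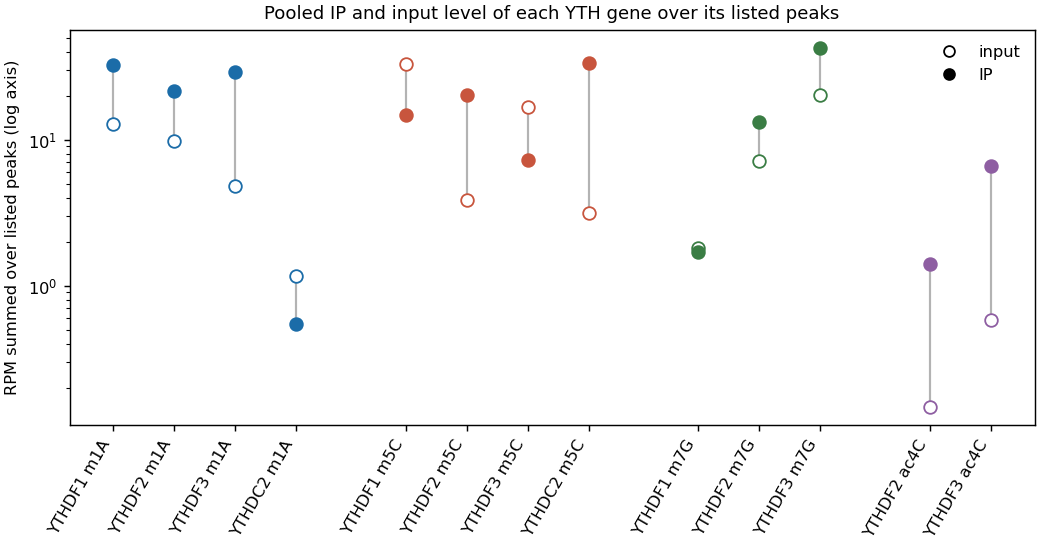
RPM summed over the listed peaks of each gene (log axis) in the pooled IP (filled) and the pooled input (open), per antibody list. In m1A the IP exceeds the input in the 3 YTHDF genes; in m5C it does so in YTHDF2 and YTHDC2 only, and by the median of the peak ratios in place of the sum, the m1A values of YTHDF1 (0.673) and YTHDF2 (0.847) turn below 1.

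Psi peaks were most numerous in YTHDF3, with 7. YTHDF2, YTHDC1 and YTHDC2 had 3 each and YTHDF1 had 2, where 25.2% of genes with a Psi summit had 3 or more and 2.31% had 7 or more. Spans of different length were searched, 20703 bases for YTHDF1, 33152 for YTHDF2, 44236 for YTHDF3, 39704 for YTHDC1 and 81591 for YTHDC2. The fold over local background, the authors' value, was highest in YTHDF3 at 6.77 (63210511 to 63210538, pileup 7) and next in YTHDC1 at 6.51 on chromosome 4 (68337262 to 68337305, pileup 6). These 2 stood above 91.8% and 89.5% of Psi peaks. The lowest was 2.91 in YTHDC2 (pileup 2). The median pileup of the whole list was 4, so each Psi value rests on few tags, and the list is without strand and without a control.

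Of the 18 Psi peaks, 5 overlapped an antibody peak, all of them in the 3 YTHDF genes, beside 38.2% of the 12870 Psi peaks with a summit in a protein-coding gene. Both YTHDF1 summits lay near the 3' end, the first under the m1A and m7G peaks at 63196555 and the second under an m1A peak. YTHDF2 had a Psi summit 39 bases from its 3' end, under the m1A and m5C peaks there, with a fold of 5.63. YTHDF3 had 2 Psi peaks in the first 500 bases of the gene, with folds of 3.83 and 3.82; the first overlapped m1A, m5C and m7G peaks and the second m5C and m7G peaks. YTHDC1 had 2 Psi peaks in the same distance of its 5' end, 154 and 317 bases in, with folds of 3.85 and 4.82. None of the 3 YTHDC2 peaks, with folds from 2.91 to 4.88, overlapped an antibody peak.

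Between antibody lists, 16 of the 35 peaks shared at least 1 base with a peak of the same gene in another list, beside 58.8% of all 75481 antibody peaks of 1 gene. Of the 6 m7G peaks 5 overlapped an m1A peak, beside 65.3% of all m7G peaks, and 5 of the 16 m1A peaks overlapped an m7G peak, beside 34.6% of all m1A peaks. Of the 11 m5C peaks 4 overlapped an m1A peak, beside 52.4%, and 4 of the 16 m1A peaks overlapped an m5C peak, beside 38.1%. In YTHDC2 the m1A and m5C peaks shared 0 bases. Within 500 bases of the 5' end lay 1 of 16 m1A, 3 of 11 m5C, 2 of 6 m7G and 4 of 18 Psi peak midpoints, beside 8.57%, 9.19%, 27.1% and 13.8% over all protein-coding genes. Within 500 bases of the 3' end lay 3 m1A, 1 m5C, 0 m7G and 2 Psi midpoints, beside 6.14%, 10.2%, 2.93% and 6.67%. These counts are too small to rank.

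Input levels give the abundance of each transcript only over bases that were listed, and no base of a gene was listed in all the lists that hold it. Per kb of listed bases, the input of YTHDF1 was 18.9 RPM in the m1A, 82.8 in the m5C and 24.1 in the m7G libraries. That of YTHDF3 was 9.63, 35.4, 33.6 and 3.88 RPM per kb in the m1A, m5C, m7G and ac4C libraries, and that of YTHDF2 was 13.0, 14.0, 31.9 and 5.88. YTHDC2 had 23.4 (m1A) and 14.0 (m5C). The ranges of the genes overlap, so they have no order by input level. At peaks with identical coordinates in 2 lists, which cover the same bases, the input sets could be compared directly. The YTHDF3 peak at 63169104 had 0.776 RPM in the m1A input and 1.31 in the m7G input, and the one at 63168553 had 15.6 in the m5C input and 10.5 in the m7G input. Over all identical peaks with at least 50 input reads on both sides, the SD of the log2 quotient between 2 input sets was 0.74 for m5C and m7G (475 peaks), 0.98 for m1A and ac4C (68 peaks) and 1.45 for m1A and m5C (467 peaks). Input sets of the same line thus differed by over 2-fold at 13.7% to 51.1% of peaks, a spread that the counting intervals above do not include.

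The pattern of summed ratios over lists could be set against another YTH gene for YTHDF1, YTHDF2 and YTHDC2. For YTHDF3 it could not, since YTHDF1 has no ac4C peak and YTHDF2 has only 49 ac4C input reads where at least 100 were asked for. YTHDF1 was nearest to DIDO1, with a mean absolute log2 difference of 0.06 over 3 lists, and to ATP2A2 with 0.09, out of 4972 genes compared. YTHDF3 ranked 1244 and YTHDF2 3638 in likeness to YTHDF1. In likeness to YTHDF2, YTHDF1 ranked 2723 and YTHDF3 3382, also out of 4972. In likeness to YTHDC2, YTHDF2 ranked 1498, YTHDF1 4604 and YTHDF3 5354, out of 5938. YTHDF2 was nearest to MAP1LC3B2 (0.16) and UPF3A (0.22) over 3 lists, and YTHDF3 to SH3GL1 (0.20) and MICAL3 (0.22) over 4 lists and 1880 genes. YTHDC2 was nearest to KIAA1958 (0.10) and XIRP2 (0.13) over 2 lists and 5938 genes. So few lists leave many genes close by, and these distances carry no test.

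Other genes of the m6A pathway were mostly listed too. All 9 m6A writer genes had an m1A and an m7G peak, 8 had an m5C peak, 4 an ac4C and 2 a Psi peak. For m1A, 2 writer genes were called higher over their summed peaks, RBM15 at 7.76 (7.09 to 8.50) and WTAP, the adaptor of the methyltransferase complex, at 2.73 (2.69 to 2.77), with 0 lower, beside 39.8% of genes called higher and 8.12% lower. For m5C, 6 of the 8 writer genes listed were lower, beside 24.2% of genes, among them VIRMA at 0.422 (0.405 to 0.439) and RBM15B at 0.188 (0.180 to 0.197), and 1, ZC3H13, was higher at 2.19, beside 32.9%. YTHDF1 and YTHDF3 were on the lower side for m5C as well, and YTHDF2 and YTHDC2 were not. For m7G, RBM15 at 4.06 (3.77 to 4.37) and METTL3, the catalytic subunit, at 3.67 (3.36 to 4.02) were called higher and 0 lower, beside 39.6% and 0.0139% of genes. Both eraser genes were higher for m1A, ALKBH5 at 6.20 (5.84 to 6.59) and FTO at 2.40 (1.81 to 3.20), and neither was called for m5C or m7G.

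Of 10 other m6A readers, 9 had m1A, m5C and m7G peaks, and 6 were called higher for m5C, beside 32.9% of genes, led by IGF2BP3 at 3.96 (3.76 to 4.17) and HNRNPC at 3.92 (3.91 to 3.94), with HNRNPA2B1 the 1 lower, beside 24.2%, at 0.462 (0.458 to 0.467). FXR2 was the only one of them called for m1A, at 3.18 (3.04 to 3.34), where 39.8% of genes were higher. It was also the only one called for m7G, at 5.20 (4.11 to 6.64), where 39.6% were higher. Of 16 known partners of YTH proteins, 14 had an m1A peak, of which 3 were higher, beside 39.8% of genes, and 2 lower, beside 8.12%. The deadenylase gene CNOT6 had an m1A ratio of 6.57 (6.16 to 7.03), the decay helicase gene UPF1 one of 5.27 (5.16 to 5.37) and the splicing factor gene SRSF10 one of 0.328 (0.323 to 0.333). For m5C 5 of 13 were higher, beside 32.9%, and 4 lower, beside 24.2%, with PABPC1, the poly(A)-binding protein gene, at 16.5 (16.2 to 16.8) and CNOT8 at 0.234 (0.177 to 0.305). For m7G 6 of 14 were higher, beside 39.6%, and 0 lower, beside 0.0139%, with SRSF3 at 3.99 (3.93 to 4.04). All 4 writer genes, both erasers, 6 other readers and 6 partners listed for ac4C were called higher there, beside 99.7% of genes. MEIOC and RBM46, partners of YTHDC2 in meiosis, had no peak in any list.

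The promoters of the 2 YTHDC genes share a sequence feature that those of YTHDF1 and YTHDF2 lack. In the 250 bases before the RefSeq start site (GRCh38.p14), YTHDC1 and YTHDC2 each hold the cyclic AMP response element palindrome TGACGTCA, which 1.65% of 35116 such windows hold. YTHDF1 holds the E-box CACGTG, which 6.34% of windows hold. Both motifs read the same on both strands and do not overlap each other. The stretches around them are shown so that the motifs can be compared in their surroundings; capitals mark the motif, and each is written 5' to 3' on the gene's strand. They lie at chr4:68350168-68350227 (minus), chr5:113513636-113513693 (plus) and chr20:63216323-63216381 (minus).
YTHDC1: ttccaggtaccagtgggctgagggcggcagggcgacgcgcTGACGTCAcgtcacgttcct
YTHDC2: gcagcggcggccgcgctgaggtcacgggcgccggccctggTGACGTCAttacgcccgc
YTHDF1: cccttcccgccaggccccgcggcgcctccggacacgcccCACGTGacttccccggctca
The palindrome starts 97 bases before the start site in YTHDC1 and 18 in YTHDC2, and the E-box 211 before that of YTHDF1. GGGCGG, the GC box, was present on either strand in all windows of the 4 genes, as in 42.6% of all windows. The CCAAT box, also searched, was in the YTHDC2 window and in 1 of 2 YTHDF2 windows, beside 32.0% of all windows. It was absent from YTHDC1 and YTHDF1, so it did not divide the YTHDC from the YTHDF genes. The TATA box, TATAAA, was in no window of the 4 genes, beside 10.7% of all windows. YTHDF3 has no window in the table. A match is a description of the letters and says nothing of binding in these cells.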

How the data were processed

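Total RNA libraries were made with a stranded mRNA kit with unique molecular identifiers, per the labels' protocols. Per the submitters' processing notes, the tools were HISAT2 and StringTie and the build hg38; the sources used here give no caller for the antibody peaks. The authors deposited, per antibody peak, RPM of the pooled IP and input, a log2 enrichment and a p-value with its adjusted value; the enrichment was only quoted and the p-value used only for a stricter list. Per the file headers, MACS 2.2.6 called Psi peaks jointly over 3 libraries, with no control and a q-value limit of 0.05; pileup signal and fold over background are as deposited, as is the −log10 q-value.

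The RPM steps equal 1 read each (100% of values, within 0.1 read), which gave the pooled reads (Python 3.11.15, scipy 1.17.1). As the values are pooled, ratios with exact counting intervals were used in place of a model over libraries. Whether the identifiers were used to remove PCR copies is not given, so intervals cover counting error only. Whether the 3 libraries of a group are separate cultures is not stated. Fisher's exact test compared the 5'-most and the 3'-most listed peak of a gene, over all genes with 2 or more peaks. Planned p-values adjusted over pairs of members alone are not given; intervals stand in their place. All 5 genes were matched in RefSeq (GRCh38.p14) and 4 have a promoter window. All members are named; of each fixed list up to 4 genes per modification, the 2 highest and 2 lowest, could be named, and likeness took the 2 nearest genes with at least 100 input reads per list. The members and lists were chosen with earlier results of these data known. The interval and the call rule were tested on simulated data.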

Additional observations from a re-analysis of the deposited data

How the results depend on the processing

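Centring each list on its median ratio (1.67 for m1A, 1.01 for m5C, 1.36 for m7G and 11.9 for ac4C) left 3 higher m1A peaks in place of 5 and 7 lower in place of 3, and 0 higher ac4C peaks in place of 2, and it left 3 gene ratios of at least 2 in place of 8. The ac4C ratios of YTHDF2 and YTHDF3 then turned to 0.798 and 0.957. A fold of 4 left 3 m1A and 0 m7G peaks higher and 0 m1A and 0 m5C peaks lower. A fold of 1.5 gave 6 lower m1A and 3 higher m7G peaks. The exact binomial test without a fold gave 6 lower m1A, 4 higher m7G and 1 lower m7G peaks. In the stricter 50% of each list by the authors' p-value, 2 m5C peaks were higher, 2 lower and 0 ac4C peaks higher. Taking the median of a gene's peaks in place of their sum turned the m1A ratios of YTHDF1 and YTHDF2 to 0.673 and 0.847 and left 5 gene ratios of at least 2 and 1 of at most 0.5, in place of 8 and 3; the peak of the highest authors' enrichment left 1 of at most 0.5. Within 200 bases, 5 peaks were near a 5' end and 3 near a 3' end, in place of 10 and 6, and within 1000 bases 10 were near a 3' end. By adjusted p alone (Fisher's exact test, chosen after seeing the data), 2 m5C genes were higher at their 5'-most listed peak, in place of 0. Of the alternatives tried on summary counts, 51 stayed within 1.5 times and the 23 above did not. No paired analysis was possible because the lists hold 1 pooled value per group, and leaving out a replicate was not run for the same reason. Input level over bases common to all lists was not run, as there are 0 such bases. The ac4C peaks rest on the shallowest IP, with 24 and 114 reads.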
